A study of Mus musculus with 11 samples.

Results

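The UDP-glucuronosyltransferase (Ugt), sulfotransferase (Sult) and glutathione S-transferase (Gst) genes were followed in the liver and spleen of mice that drank the small molecule Curaxin-137. Every array probe whose annotated symbol begins with Ugt, Sult or Gst and names an enzyme of these families was taken, whatever its signal. The rule found 60 of the 19057 genes named on the array, read by 101 of its 45281 probes: 37 probes of 21 Ugt genes, 23 probes of 16 Sult genes and 41 probes of 23 Gst genes. All the mice carried a Her2/neu transgene, the water controls included, and this transgene drives mammary tumours. The series held total RNA from 6 livers and 5 spleens, each hybridised to its own Illumina mouse bead array. Treatment lasted 10 weeks, from 4 to 14 weeks of age. Livers came from mice given plain water (replicates 1 and 25), 0.1 mg/ml Curaxin-137 (replicates 43 and 55) or 0.2 mg/ml (replicates 73 and 85). Spleens came from plain water (replicate 8), 0.1 mg/ml (replicates 56 and 32) and 0.2 mg/ml (replicates 62 and 62_86). The labels give neither the sex of the mice nor the promoter of the transgene.

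These enzymes carry out conjugation, the phase of drug metabolism in which a polar group is joined to a drug, hormone, bile pigment or reactive metabolite so that it can be excreted. Ugt enzymes sit in the endoplasmic reticulum and transfer glucuronic acid from UDP-glucuronate. Sult enzymes are cytosolic and transfer sulfonate from PAPS, and most Gst enzymes are cytosolic and add glutathione to electrophiles. The liver is the main organ of all 3 reactions, and many of the genes there respond to the nuclear receptors CAR and PXR, to the aryl hydrocarbon receptor or to the oxidant sensor Nrf2. Curaxin-137 belongs to the curaxins, DNA-binding molecules that trap the histone chaperone FACT, and how conjugating enzymes stand after long oral dosing was one question the design allowed to be asked.

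The arrays had mean signals of 94.7 to 219, and 35.8% to 43.2% of probes were detected. Of 7 hepatocyte markers 6 were detected on every liver array, the exception being Fgb, detected on 1 liver and on no spleen. On the spleen arrays 3 to 5 of the 7 were detected, with Cps1 on none. All 3 named B cell markers were detected on every spleen array and at most 1 on a liver array. Control liver 25 stood apart from the other livers: its 6 neutrophil markers summed to 1446 background-corrected intensity units, against 20.4 to 77.4 on the other 5 livers. Among the spleens, replicate 32 had neutrophil markers summing to 12260 against 1321 to 3422 on the other 4. The labels do not say which samples share an animal, and the p-values measure only the spread between these samples, which may be technical. The spleens 62 and 62_86 share the number 62 in their labels and may not be 2 independent spleens. With these arrays averaged into 1 sample, no member passed at 0.2 mg/ml against control or between the doses in spleen. Between the tissues 40 of 45 members still differed, where 58.7% of all features did. The spleen control was 1 array, so spleen comparisons with control assume that it varied as the treated spleens did. In these whole-organ samples, fewer cells of a type and less RNA per cell cannot be told apart.

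Members lie in gene clusters. By the order of protein-coding genes in the mouse RefSeq annotation, 10 of the Ugt2 genes on the array formed 1 run, as did 8 Ugt1a genes, 7 Gstm genes and 4 Gstt genes, with no more than 2 other protein-coding genes between neighbours. The 8 Ugt1a genes each have their own first exon and share the remaining exons, so a probe in the shared part reads all of them. Values of single Ugt1a genes, and of the near-identical Gsta1 and Gsta2, Gstm paralogs and Gstp1 and Gstp2, are therefore uncertain as to which gene they measure. Probe sequences were not used here.

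RefSeq promoter windows from 250 bases before to 50 bases after the annotated start (build GRCm38.p6) were matched for 53 of the 60 genes, which gave 65 windows of 300 bases. The window of Gsta3 is given because this gene had the smallest adjusted p for dose, and those of Ugt1a10 and Ugt2a3 because they are liver-biased genes whose windows hold a pair of matches to a hepatocyte factor motif. They were picked after matches and results were known. Capitals mark matches, on either strand, to TGACNNNGC (core of the antioxidant response element bound by Nrf2) and GTTAAT (half-site of the hepatocyte factor HNF1).
Gsta3, chr1:21240335-21240634, plus strand: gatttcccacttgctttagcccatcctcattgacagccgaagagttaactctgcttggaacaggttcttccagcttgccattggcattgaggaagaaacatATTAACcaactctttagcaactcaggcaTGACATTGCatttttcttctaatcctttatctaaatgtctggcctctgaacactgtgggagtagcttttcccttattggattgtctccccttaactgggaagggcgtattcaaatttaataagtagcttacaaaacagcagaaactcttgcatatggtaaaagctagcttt
Ugt1a10, chr1:88055161-88055460, plus strand: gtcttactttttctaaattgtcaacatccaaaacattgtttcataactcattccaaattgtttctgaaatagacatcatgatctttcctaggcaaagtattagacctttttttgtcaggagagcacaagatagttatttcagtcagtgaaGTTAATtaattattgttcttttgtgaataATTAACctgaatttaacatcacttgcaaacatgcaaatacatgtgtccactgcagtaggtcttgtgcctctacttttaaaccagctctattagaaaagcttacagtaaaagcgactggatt
Ugt2a3, chr5:87337146-87337445, minus strand: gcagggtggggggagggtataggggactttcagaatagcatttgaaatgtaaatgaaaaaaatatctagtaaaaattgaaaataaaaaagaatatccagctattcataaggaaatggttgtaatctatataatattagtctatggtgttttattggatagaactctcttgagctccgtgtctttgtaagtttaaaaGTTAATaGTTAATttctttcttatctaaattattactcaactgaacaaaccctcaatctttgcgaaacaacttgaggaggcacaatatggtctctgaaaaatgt

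The HNF1 half-site GTTAAT was found in 11 of 65 member windows (16.9%) and in 7.1% of all 32851 windows. By family it was in 6 of 19 Ugt windows (31.6%), 4 of 16 Sult windows (25%) and 1 of 30 Gst windows (3.33%), the last being the window of Gsta3. The antioxidant element core TGACNNNGC was found in 3 of 65 member windows (4.62%), those of Gsta3, Gstm5 and Gstm7, and in 12.4% of all windows. The TATA box TATAAA was in 13 member windows (20%) and in 13.6% of all windows. Some genes have several windows, and a match describes letters only.

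Detection separated the families by tissue. A gene entered the analysis of a tissue if any of its probes was detected (p-value below 0.05 in the deposited file) on 2 or more arrays of that tissue. In liver 41 genes met this: 16 Ugt, 5 Sult and 20 Gst. In spleen 25 did: 4 Ugt, 4 Sult and 17 Gst. Both tissues shared 22 genes, 16 of them Gst, while 12 Ugt genes passed in liver and not in spleen. The spleen's 4 Ugt genes were Ugt1a10, Ugt1a7c, Ugt2a3 and Ugt8a, the last known as the galactosyltransferase of myelin lipid synthesis, and only Ugt1a10 was detected on all 5 spleen arrays. Neither tissue passed 16 genes, and 13 of these were undetected on every array. The 13 were Ugt2a1, Ugt2a2, Ugt2b5, Ugt2b37, Ugt2b38, Sult1b1, Sult1c1, Sult2a1, Sult2a2, Sult2a6, Sult3a2, Gsto2 and Gstt4. The other 3 of the 16 were Sult3a1, Sult6b1 and Sult4a1, each detected on at most 1 array per tissue. A weak probe and an unexpressed gene look alike here, and no level is given for these genes, except that Sult4a1, detected on 1 array of each tissue, enters the comparison between tissues.

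The first comparison asks where the enzymes are made. With all 11 arrays normalised together and 1 mean fitted per tissue and dose, 45 members could be tested, and 40 differed between liver and spleen at an adjusted p under 0.05 (limma, Benjamini-Hochberg over 16179 features). Of these 38 were higher in liver and 2 lower, where 25.6% of all features were higher in liver, 36.7% lower and 62.3% called in all. The median log2 difference of the members was 3.33, against -0.07 for all features (0.21 when arrays were scaled to their 75th percentile). All 40 called members had no overlap between the 6 livers and the 5 spleens, and 48.4% of all features had none. A member that passed the detection filter through liver alone had to differ, so the counts describe the tested members and support nothing beyond them. Folds understate dim probes because an offset of 16 was added before taking logs, and "at least" marks folds whose dimmer tissue was undetected on all arrays and was set to the lowest detected value.

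Of 16 Ugt genes tested, 15 were higher in liver, with a median log2 difference of 4.50. Ugt2b36, in the subfamily that glucuronidates steroids and bile acids, ran from 12.60 to 13.02 on the livers (median 12.91, log2 intensity) and from 4.16 to 4.26 on the spleens (median 4.23), at least 364-fold higher in liver (adjusted p = 1.98e-11, limma). Ugt3a2, whose human counterpart uses UDP-glucose rather than UDP-glucuronate, ran from 11.25 to 11.80 in liver and from 4.14 to 4.23 in spleen, at least 144-fold. Neither was detected on any spleen array. Ugt2b1, Ugt3a1 and Ugt2b35 were also undetected in spleen and were at least 54.0-fold, 53.9-fold and 31.1-fold higher in liver. The Ugt2a3 probe used for this comparison was detected on 1 spleen array, with a log2 difference of 4.72 ± 0.130 (SE). Ugt1a10 stood out among them because the probe used was detected on every spleen array. It read 12.37 to 12.72 on the livers and 6.04, 6.31, 6.89, 6.54 and 6.51 on spleens 8, 56, 32, 62 and 62_86. Of the 6 Ugt1a10 probes, those reading 6.03 to 6.64, 6.72 to 7.91 and 4.26 to 4.73 on the livers were undetected on every spleen. Which Ugt1a gene the spleen signal comes from is therefore uncertain. The log2 difference of the Ugt1a10 probe used was 6.19 ± 0.125 (SE), or 73.0-fold. Ugt1a1, the bilirubin-conjugating enzyme, was 2.59 ± 0.129 higher in liver, and its probe was detected on all 6 livers and 1 spleen. Ugt8a did not differ beyond the spread (0.07 ± 0.0973, adjusted p = 0.548).

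Of 8 Sult genes tested, 5 were higher in liver, Sult1d1 by 1 of its 2 probes. Sult2a8, a hepatic sulfotransferase that sulfates bile acids in mice, ran from 10.42 to 11.03 on the livers and from 4.10 to 4.16 on the spleens, where it was undetected, at least 88.5-fold higher in liver. Sult1a1, the main phenol sulfotransferase, was found in both organs. It ran from 10.77 to 12.19 on the livers, and on spleens 8, 56, 32, 62 and 62_86 it read 6.46, 7.66, 6.67, 7.23 and 7.15, a difference of 4.43 ± 0.217 (SE) with no overlap. Sult1c2 was at least 5.73-fold and Sult5a1 at least 5.68-fold higher in liver. The probes of Sult1d1, which sulfates catecholamines in mice, disagreed. Its brighter probe read 8.02 to 9.54 on the livers and was undetected on all 5 spleens, while its second, dim probe was detected on 4 livers and 3 spleens and read 4.42 to 4.77 on the livers and 4.27 to 4.80 on the spleens, with overlap. Sult1e1, the estrogen sulfotransferase, Sult2b1, the cholesterol sulfotransferase, and Sult4a1, a mostly neuronal member, sat near background in both tissues, with log2 differences of -0.01 to 0.08.

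The Gst family was the one shared by both organs: 18 of 21 genes tested were higher in liver and 2 lower, but only Gsta2 and Gstm3 of the 18 were undetected on all spleen arrays. Gstp3 ran from 12.13 to 12.79 on the livers and read 5.43, 6.15, 6.88, 5.52 and 5.57 on spleens 8, 56, 32, 62 and 62_86, a log2 difference of 6.57 ± 0.160 (SE). Gsta3, the mouse alpha-class enzyme known for detoxifying the aflatoxin epoxide, ran from 12.82 to 13.16 on the livers and read 5.99, 7.22, 7.17, 7.65 and 7.85 on the same spleens, a difference of 6.03 ± 0.105. The lowest of those 5 was the control spleen. Gstm1, a mu-class enzyme, was 5.48 ± 0.162 higher in liver, and Gstz1, the maleylacetoacetate isomerase of tyrosine breakdown, 4.97 ± 0.119 higher. Gsto1, the omega-class enzyme that also reduces dehydroascorbate, was 1.76 ± 0.0993 higher in liver. Gstm3, undetected in spleen, was at least 1.63-fold higher in liver.

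Gstp2 was lower in liver, at 4.92, 4.41, 4.64, 5.51, 4.64 and 4.54 on livers 1, 25, 43, 55, 73 and 85 against 5.71 to 6.23 on the spleens. The log2 difference was -1.22 ± 0.186 (SE, adjusted p = 3.05e-04). Its neighbours Gstp1 and Gstp3 went the other way, by 3.65 and 6.57. Gstcd, a protein with a Gst C-terminal domain, was undetected in liver and detected on all 5 spleens, at least 1.14-fold lower in liver (log2 difference -0.34, adjusted p = 0.00679). With scaling to the 75th percentile that difference was -0.06 (adjusted p = 0.706), so its size and its call rest on the scaling. Gstm5 was the 1 tested Gst gene that was not called. It read 5.30, 6.72, 8.88, 6.75 and 6.88 on spleens 8, 56, 32, 62 and 62_86, and 7.13 to 7.68 on the livers, so the tissues overlapped through spleen 32.

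**Figure D1:**
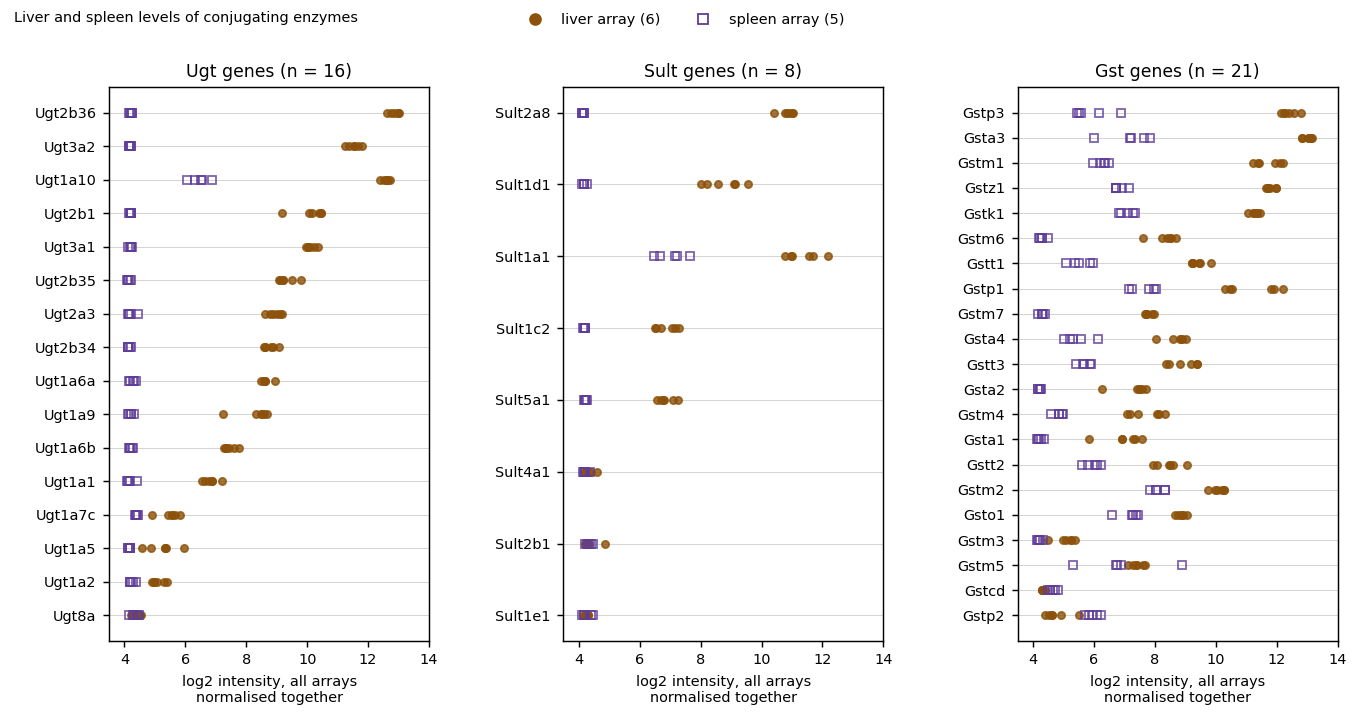
Level of each tested gene (rows, 1 probe per gene) on each array, as log2 intensity with all 11 arrays normalised together; filled circles are the 6 livers and open squares the 5 spleens, and genes are ordered by the difference within each family. Levels of different genes come from different probes and are not to be ranked. Most Ugt genes lie at the background level near 4.2 in spleen, while most Gst genes lie above it in both organs.

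Genes that serve these reactions were listed as well and read over all features. Of 12 other conjugating enzymes tested, all 12 were higher in liver, with a median log2 difference of 4.58. They were led by Inmt, an indolethylamine methyltransferase, at 8.54 and Glyat, the glycine acyltransferase, at 6.58. The glutathione supply list had 9 of 13 higher and 2 lower, and Oplah, which recycles 5-oxoproline to glutamate, was 3.25 higher. Sulfation supply had 6 of 8 higher and 1 lower, with Papss2, which makes PAPS, at 4.03, while its sister Papss1 did not differ beyond the spread (-0.15, adjusted p = 0.393). Glucuronidation supply had 3 of 6 higher and 1 lower; the lower one, at -1.17, was Gusb, the lysosomal enzyme that removes glucuronic acid. The MAPEG membrane enzymes split, with Mgst1 higher in liver by 6.38 and 4 of 6 lower, among them Alox5ap, the leukotriene pathway protein, at -2.76. Regulators had 10 of 13 higher and 1 lower, with Hnf4a at 6.23, the bile acid receptor gene Nr1h4 at 5.82 and the CAR gene Nr1i3 at 4.81.

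The next comparison asks whether the lower dose moved the enzymes in liver. No member of 41 passed the test at 0.1 mg/ml against water (limma, smallest adjusted p = 0.984), and 0% of all 12800 features did. Without adjustment 3 members had a p under 0.05 where 4.01% of all features did (2.13% higher and 1.88% lower). They were Gstt3, a theta-class enzyme, at a log2 difference of -0.77 ± 0.227 (SE), Gstm2 at 0.43 ± 0.176 and Ugt1a6b, of the phenol-conjugating Ugt1a6 pair, at 0.41 ± 0.157. Gstt3 read 8.69 and 9.34 on control livers 1 and 25 and 8.20 and 8.30 on livers 43 and 55, so the groups did not overlap. Such gaps were found in 8 of 41 members and in 30.2% of all features. Next by unadjusted p among higher values were Ugt1a7c at 0.46, Gstp1 at 0.79 and Gsta2 at 0.70. Among lower ones came Ugt3a1 at -0.27, Ugt1a6a at -0.27, Ugt1a5 at -0.39 and Ugt1a1 at -0.22. The other Ugt1a6a probes went the opposite way, at 0.21 and 0.10. The median of the 20 Gst genes was 0.19, of the 16 Ugt genes 0.05 and of the 5 Sult genes 0.00, against 0.00 for all features.

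At 0.2 mg/ml against water, again no member of 41 passed (smallest adjusted p = 0.465), with 0% of all features called. Unadjusted, 2 members had a p under 0.05 where 8.78% of all features did (4.94% higher and 3.84% lower). Gstm4, a mu-class enzyme, read 8.14 and 7.17 on control livers 1 and 25 and 6.88 and 6.78 on livers 73 and 85, a log2 difference of -0.82 with a 95% interval of -1.47 to -0.16. Sult1a1 read 10.91 and 11.68 on the controls and 12.24 and 11.80 on livers 73 and 85, a difference of 0.72 with an interval of 0.11 to 1.34. Neither pair overlapped the controls, but the controls lay further from each other than the treated livers did. Gaps with no overlap were found in 8 of 41 members and in 38.7% of all features. Others listed by unadjusted p read higher by 0.83 for Sult1d1, 0.35 for Gstm2, 0.28 for Gstm7 and 0.31 for Ugt3a2. A second Sult1d1 probe gave -0.14, and the other Gstm2 probes gave -0.12 and 0.36. The lower ones read -0.76 for Gstp1, -0.28 for Ugt2b35, -0.18 for Ugt1a6a and -0.18 for Gsto1. The other Ugt1a6a probes gave 0.54 and -0.03.

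A few members, chosen after their values were seen, are given with their intervals. Ugt1a1 read 6.92 and 6.33 on control livers 1 and 25, 6.24 and 6.57 at 0.1 mg/ml and 6.59 and 6.46 at 0.2 mg/ml. Its log2 difference at 0.2 mg/ml was -0.10, with a 95% interval of -0.62 to 0.42. Gsta3 read 13.19 and 12.81 in control livers, 13.04 and 12.82 at the lower dose and 13.15 and 13.08 at the higher, a difference of 0.12 at 0.2 mg/ml (interval -0.31 to 0.54). The most strongly liver-biased Ugt gene, Ugt2b36, differed by -0.04 (interval -0.47 to 0.38), and Ugt1a10 by 0.12 (interval -0.27 to 0.51). Over all 41 members the interval lay within 1 log2 unit of 0 for 31 at each dose. For the other 10 these arrays do not bound the change as tightly. Among those were the alpha-class genes Gsta2, at 0.54 (interval -0.32 to 1.40), and Gsta1, at 0.21 (interval -0.86 to 1.28), both at 0.2 mg/ml.

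**Figure D2:**
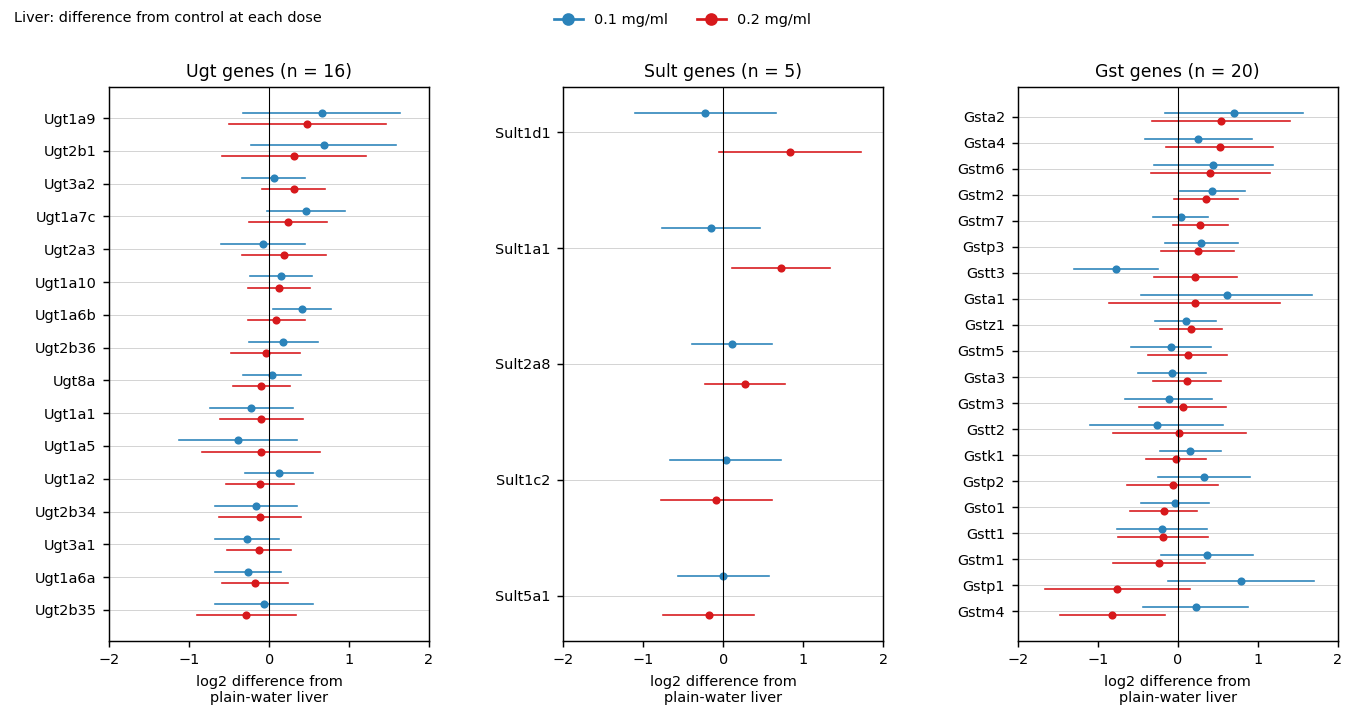
Log2 difference from plain-water liver for each analysed member, at 0.1 mg/ml (blue) and 0.2 mg/ml (red); points are differences of group means (2 arrays a group) and lines 95% intervals from limma, unadjusted. Both doses share the same 2 control livers. The points of all 41 members lie between -0.82 and 0.83, and no member passed after adjustment.

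The 2 control livers differed from each other more than the treated ones did, and the members showed this more than other genes. The median absolute gap between controls 1 and 25 was 0.59 over the 41 members and 0.24 over all features. Between livers 43 and 55 it was 0.17 for members and 0.17 for all features, and between livers 73 and 85 it was 0.13 and 0.15. Of the members 30 of 41 read lower on control 25, where 48.7% of all features did. This one-sidedness was not particular to the controls. In the 0.2 mg/ml pair, 31 of 41 read lower on liver 85, where 48.2% of all features did. In the 0.1 mg/ml pair, 18 of 41 read lower on liver 55, where 47.7% did. The largest gap was 1.78, for Gsta1, at 7.30 on control 1 and 5.52 on control 25, with 6.62 to 7.06 on the 4 treated livers. Ugt1a9 read 8.54 and 6.95 on the controls and 8.12 to 8.44 on the treated livers. By the probes used, Gsta1 and Ugt1a9 put control 25 below the other 5 livers. The other Gsta1 probes, detected on every liver, went the opposite way and read lowest on control 1. The other Ugt1a9 probe also read lowest on control 25. Control 25 also carried the neutrophil markers: all 6 were detected there, against 1 to 3 on the other livers, and their part in the member values was not tested.

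In the direct comparison of the doses the controls enter through the spread alone. No member of 41 passed (smallest adjusted p = 0.389, with 0% of all features called), and 6 had an unadjusted p under 0.05 where 9.51% of all features did (5.12% higher and 4.38% lower). Gstp1, Gstm4 and Gstm1 read lower at 0.2 than at 0.1 mg/ml, while Gstt3, Sult1a1 and Sult1d1 read higher. Groups did not overlap for 24 of 41 members and for 48.1% of all features.

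Gstp1, the pi-class enzyme that in mice is far more abundant in male than in female liver, read 11.90 and 12.27 on livers 43 and 55 and 10.41 and 10.66 on livers 73 and 85. The log2 difference was -1.55, with a 95% interval of -2.46 to -0.64. Its other 2 probes gave -1.27 and -1.49. Control 1, at 11.99, lay with the lower dose, and control 25, at 10.59, with the higher dose. Gstm4 was split alike, at 7.91 and 7.84 against 6.88 and 6.78, a difference of -1.04 ± 0.285 (SE), with the controls at 8.14 and 7.17. Gstm1 read 12.01 and 12.25 at 0.1 mg/ml and 11.51 and 11.55 at 0.2 mg/ml, a difference of -0.60 ± 0.250, with controls at 12.15 and 11.38. A second Gstm1 probe, detected on 3 livers, gave 0.17.

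The other 3 ran the opposite way. Gstt3 read 8.20 and 8.30 on livers 43 and 55 and 9.35 and 9.13 on livers 73 and 85, a log2 difference of 0.99 with an interval of 0.47 to 1.51. Sult1a1 read 11.17 and 11.11 against 12.24 and 11.80, a difference of 0.88 ± 0.267 (SE). Sult1d1 read 8.02 and 8.40 against 9.53 and 9.0, a difference of 1.06 ± 0.385, while its second, dim probe gave 0.02. For all 3, control 25 lay closer to the higher dose than control 1 did. The remaining listed members read higher by 0.24 for Gstm7 and 0.25 for Ugt3a2, and lower by values of -0.32 for Ugt1a6b and -0.39 for Gstp2.

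Leaving out a control changed these calls. Without control 1 or without control 25, Gstp1, Gstm4, Gstt3, Sult1a1 and Sult1d1 passed the test between doses, 5 members in each fit, with 1.65% and 1.75% of all features called. The differences hardly moved (Gstp1 -1.56 in both, with adjusted p from 0.00292 to 0.991 over all alternatives), but the spread was then estimated from the treated livers alone. Against control the outcome turned on which control was kept. Without control 1, Gsta1, Gsta2, Gstp1, Gstt3, Ugt1a9 and Ugt2b1 passed at 0.1 mg/ml (6 of 40 members, 2.38% of all features), and Gsta1, Gsta2, Gsta4, Ugt1a9 and Ugt2b1 at 0.2 mg/ml (5 of 40, 1.47%). Without control 25, no member passed at 0.1 mg/ml, and Gstm4, Gstp1, Sult1a1 and Sult1d1 did at 0.2 mg/ml (4 of 41, 4.93%).

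Genes known to differ between male and female liver ran alongside Gstp1. Of 6 male-biased genes picked after the data were seen, all 6 were detected on every liver, and their summed background-corrected intensity was 15519 and 7425 on controls 1 and 25, 15168 and 16028 at 0.1 mg/ml, and 9454 and 12245 at 0.2 mg/ml. Hsd3b5, a male-biased ketosteroid reductase, read 11.34 and 8.96 in controls, 11.01 and 11.20 at the lower dose and 10.13 and 10.75 at the higher. The only female-biased gene taken was Cyp2b9, also picked after the data were seen. It read 4.73 and 7.38 in controls, 5.32 and 4.68 at the lower dose and 8.19 and 7.66 at the higher. The livers with high Gstp1 were thus those with high Hsd3b5 and low Cyp2b9. Because these genes were picked after the data were seen, they cannot establish a sex pattern. The part of sex-biased expression in the Gst and Sult differences was not tested.

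**Figure D3:**
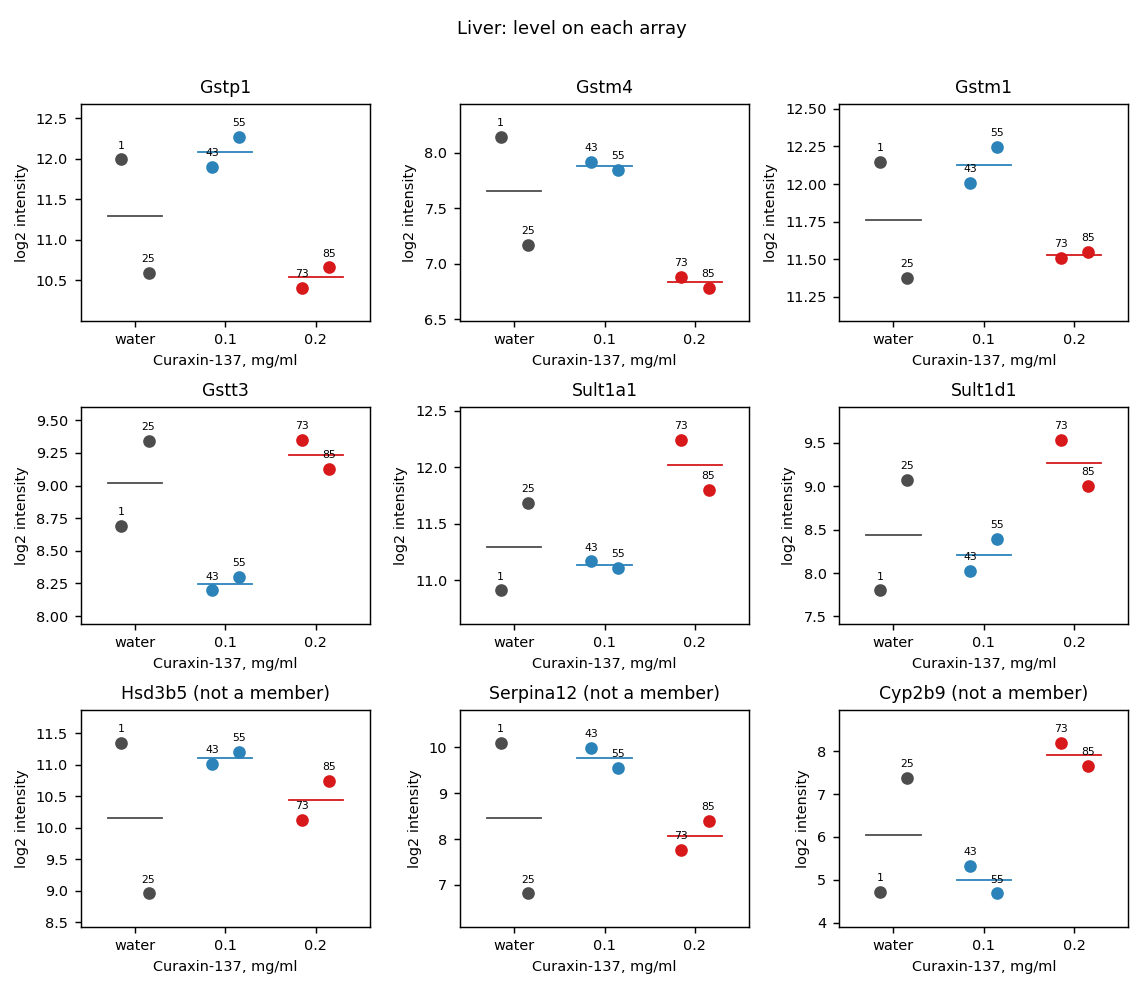
Level on each liver array (points, labelled by replicate; log2 intensity, livers normalised together) by dose, with group means as lines, for the 6 members with an unadjusted p under 0.05 between doses and for 3 sex-biased genes that are not members. Axes differ between panels and do not start at 0. In every member panel control 25 lies nearer the 0.2 mg/ml livers than control 1 does.

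Supply genes in liver were read beside these. Of 11 glutathione supply genes, none passed in any liver comparison. Between doses 5 of the 11 had an unadjusted p under 0.05, where 9.51% of all features had one (4.38% lower), and all 5 read lower at 0.2 mg/ml: Gclm and Gclc, the subunits of the rate-limiting glutamate-cysteine ligase, at -0.57 and -0.71, Gss, glutathione synthetase, at -0.49, Glo1 at -0.40 and Anpep at -0.90. Of all 11, 6 read lower and 5 higher between doses, where 6206 of 12800 features were lower. The list's median between doses was -0.21, against 0.01 for all features. Against water at 0.2 mg/ml it was -0.27, with 9 of 11 lower where 6224 of 12800 features were lower. Sulfation supply, glucuronidation supply, MAPEG enzymes, other conjugating enzymes and regulators had medians of -0.12 to 0.20 between doses, with no member called.

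The same questions were put to the spleen, where 25 members were tested among 14179 features. At 0.1 mg/ml no member passed against the 1 control array (limma, smallest adjusted p = 0.457, with 0% of all features called). Unadjusted, 4 had a p under 0.05 and all 4 read higher, where 4.66% of all features were higher at that level, 5.13% lower and 9.79% in either direction. They were Gsta3 at 1.20, Gstm5 at 2.44, Gstp3 at 1.10 and Gsto1 at 0.66. Next came Gsta4, which clears the lipid peroxidation product 4-hydroxynonenal, at 0.74. The lower ones, led by Gstt3 at -0.36, Gstm4 at -0.31 and Gstt2 at -0.18, had unadjusted p values of 0.255 and above. A second Gstt2 probe gave -1.49, at 6.57 on the control and 4.45 and 5.71 on spleens 56 and 32. Of the 25, 19 read higher, and the median was 0.24 against 0.02 for all features.

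At 0.2 mg/ml no member passed either (smallest adjusted p = 0.258, 0% of all features called). Gsta3 at 1.71 and Gsto1 at 0.78 were the 2 with an unadjusted p under 0.05, where 5.68% of all features had one (3.26% higher and 2.42% lower). Gstm5 at 1.54, Gstp1 at 0.72 and Gstt1 at 0.65 followed, and the lower values were led by Gstt2 at -0.53, Gstcd at -0.25 and Gstp2 at -0.20. The other kept Gstcd probes gave -0.17 and 0.19. Of the 25, 20 read higher, with a median of 0.22 against 0.00 for all features. The 1 control lay outside the range of the treated pair for 21 members at 0.1 mg/ml and 19 at 0.2 mg/ml, and for 66.6% and 75.3% of all features.

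Gsta3 had the smallest unadjusted p among members against control at both doses. It read 6.29 on the control spleen, 7.51 and 7.46 on spleens 56 and 32, and 7.90 and 8.09 on spleens 62 and 62_86. Both treated pairs lay above the control, and the pair at the higher dose lay above the pair at the lower. The difference from control was 1.20 at 0.1 mg/ml (95% interval 0.56 to 1.83) and 1.71 at 0.2 mg/ml (interval 1.08 to 2.34), and between the doses it was 0.51 ± 0.217 (SE, adjusted p = 0.553, limma). In a fit of all 11 arrays together Gsta3 at 0.2 mg/ml passed, at 1.76 (adjusted p = 0.0111), where 0.507% of features were called; over all alternatives its adjusted p ran from 3.09e-05 to 1.0. A second Gsta3 probe, far dimmer in liver, was undetected on all 5 spleens, so a single probe carries this value. The promoter window of Gsta3 is the one shown above with a match to the antioxidant element core.

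Gsto1 read 6.89 on the control and 7.54, 7.56, 7.64 and 7.72 on spleens 56, 32, 62 and 62_86, the 4 treated arrays all above the control and close together. Gstm5 read 5.57 on the control, 7.01 and 9.01 on spleens 56 and 32, and 7.05 and 7.18 at 0.2 mg/ml. Gstp3 read 5.71 on the control, 6.45 and 7.17 at 0.1 mg/ml, and 5.80 and 5.86 at 0.2 mg/ml. Spleen 32 was thus the highest for both. Gstp1 read 7.45 on the control and 7.53, 8.19, 8.05 and 8.27 on the treated spleens, but its other 2 probes gave differences of -0.05 and -0.08 at 0.2 mg/ml. Ugt1a10 read 6.34 on the control and 6.61, 7.18, 6.83 and 6.80, and all 3 of its probes kept in spleen were higher at both doses, by 0.48 to 0.87. The remaining Ugt1a10 probes were undetected on every spleen. Sult1a1 read 6.76 on the control and 7.91, 6.96, 7.52 and 7.44. For both genes the 4 treated spleens lay above the control without passing the test.

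Between the doses in spleen, 0 of 25 members passed (0.00705% of all features, that is 1, did). At an unadjusted p under 0.05 there was 1 member, Gstp3, at -0.98 ± 0.288 (SE, adjusted p = 0.518, limma), where 9.01% of all features had one (4.93% higher and 4.08% lower). Gstt2 at -0.35, Gstm5 at -0.90, Gstm2 at 0.28 and Gstp1 at 0.30 were next. Other probes disagreed with 2 of these values. A second Gstt2 probe gave 0.76, and the other Gstp1 probes gave -0.08 and -0.15. Groups did not overlap for 7 of 25 members and for 40.4% of all features.

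Single spleens decided calls. Without spleen 56, Gsta3, Gsta4, Gstm5, Gstp1, Gstp3 and Ugt1a10 passed at 0.1 mg/ml (6 of 23 members, 15.2% of all features), Gsta3, Gstm5 and Gsto1 at 0.2 mg/ml (3 of 23, 5.66%) and Gsta4, Gstm5 and Gstp3 between doses (3 of 23, 13.3%). Without spleen 32, Gsta3, Gstm5, Gstt1 and Sult1a1 passed at 0.1 mg/ml (4 of 23, 9.45%) and Gsta3 and Gstm5 at 0.2 mg/ml (2 of 23, 4.19%). Without spleen 62 or 62_86, Gstm5 alone passed at 0.1 mg/ml, with 0.521% and 0.867% of features called. Gsta3 at 0.2 mg/ml moved little, from 1.71 to 1.62 and 1.72 without spleens 56 and 32. Each of these fits has fewer arrays, and without spleen 56 or 32 the spread comes from spleens 62 and 62_86 alone, whose median absolute gap over members was 0.17 against 0.36 for spleens 56 and 32. If spleens 62 and 62_86 share an animal or a pool, the calls without spleen 56 or 32 rest on technical spread only.

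Markers of other spleen cells also differed between the arrays, and some followed the dose groups while others did not. Of 8 macrophage markers 5 were detected on every spleen, and their summed background-corrected intensity was 1011 on the control, 1324 and 1087 at 0.1 mg/ml and 1665 and 1672 at 0.2 mg/ml. Vsig4, Clec4f and Cd5l were undetected on all 5. C1qb, a complement subunit made by macrophages, read 7.09 on the control, 8.64 and 8.54 at 0.1 mg/ml and 9.41 and 9.38 at 0.2 mg/ml, the groups in the same order as for Gsta3. Of 5 endothelial markers 3 to 5 were detected, summing to 533 on the control, 928 and 530 at 0.1 mg/ml and 1088 and 1034 at 0.2 mg/ml. The sinusoidal lectin gene Clec4g read 6.96 on the control, 8.82 and 7.91 at 0.1 mg/ml and 9.17 and 9.13 at 0.2 mg/ml. At 0.2 mg/ml most of the rise over the control came from C1qb in the macrophage sum and from Clec4g in the endothelial sum. The remaining markers of each list together read lower on spleen 32 than on the control, so these genes do not stand for their lists. All 6 neutrophil markers were detected on every spleen, and S100a8 read 8.90 on the control, 9.87 and 12.52 on spleens 56 and 32 and 10.83 and 10.87 at 0.2 mg/ml. Both erythroid markers were detected, with sums of 7440, 9369, 17071, 6187 and 6239 on spleens 8, 56, 32, 62 and 62_86. The 7 hepatocyte markers summed to 123 on the control, 86.3 and 91.6 at 0.1 mg/ml and 80.1 and 72.6 at 0.2 mg/ml. They thus fell in the order of the doses, and on the livers they summed to 48538 to 55996. The 3 named B cell markers summed to 5222, 5627, 2661, 4081 and 4762 on spleens 8, 56, 32, 62 and 62_86, the T cell markers to 2360, 2495, 1502, 2219 and 2302, and the fibroblast markers to 506, 267, 244, 496 and 401, in the same order of spleens. The B cell, T cell and fibroblast sums did not follow the order of the doses. The part of the other cell types in Gsta3, Gsto1, Gstm5 and Gstp3 was not tested.

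**Figure D4:**
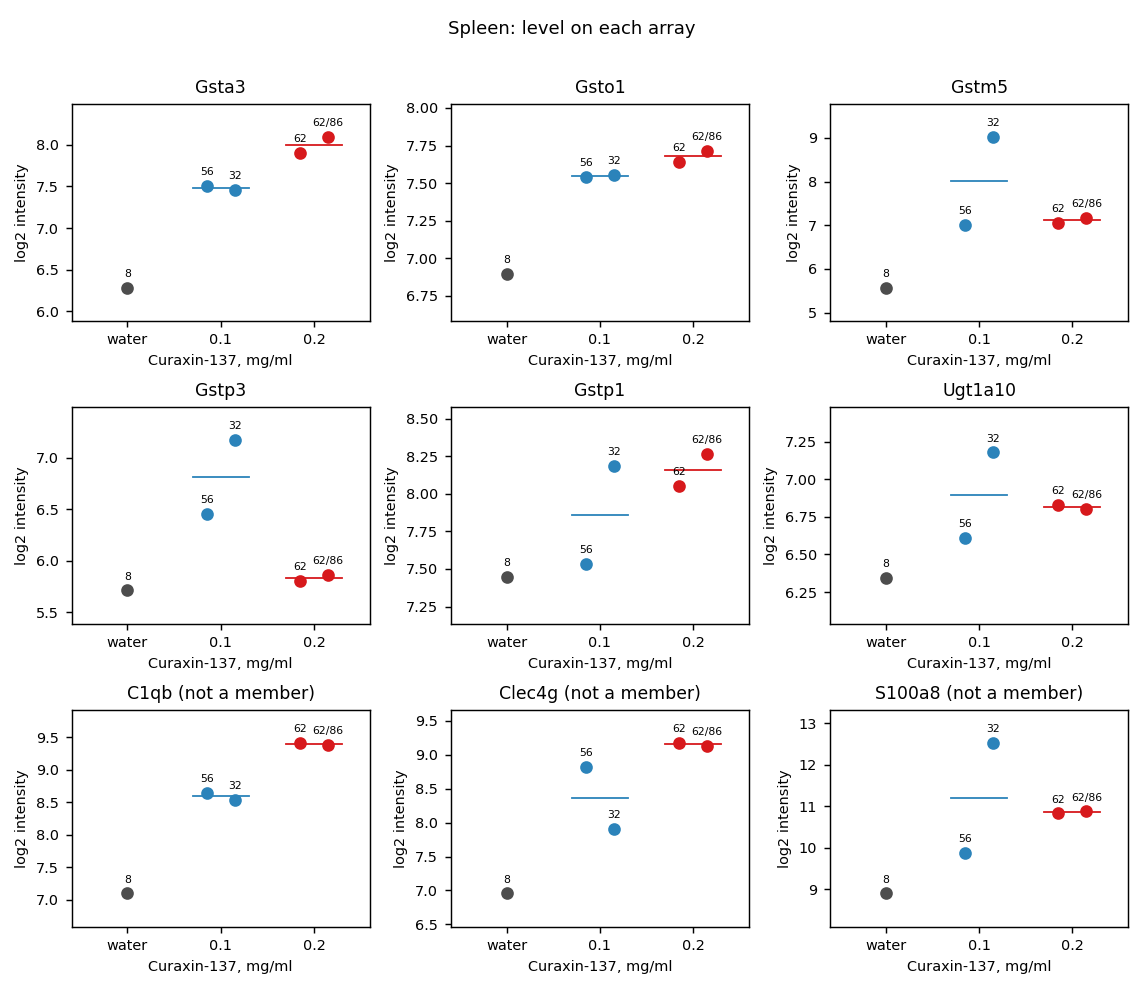
Level on each spleen array (points, labelled by replicate; log2 intensity, spleens normalised together) by dose for 6 members and for the macrophage gene C1qb, the endothelial gene Clec4g and the neutrophil gene S100a8, which are not members; lines are means of 2 arrays. Axes differ between panels and do not start at 0. Gsta3 reads 6.29 on the control and 7.90 and 8.09 at 0.2 mg/ml, and Gstm5 and Gstp3 are highest on spleen 32.

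Other genes of these pathways in spleen gave no call. The MAPEG enzymes had medians of 0.53 at 0.1 mg/ml and 0.58 at 0.2 mg/ml against control, with 5 of 6 higher at each dose. Mgst1, the microsomal glutathione transferase, was 1.23 higher at 0.2 mg/ml (adjusted p = 0.518, limma) and Ltc4s, leukotriene C4 synthase, 0.92 higher (adjusted p = 0.718). The glutathione supply list had a median of 0.14 at 0.1 mg/ml (9 of 11 higher), -0.11 at 0.2 mg/ml (5 of 11 higher) and -0.28 between the doses (10 of 11 lower). Regulators had 2 of 8 higher at each dose and 6 of 8 higher at 0.2 than at 0.1 mg/ml.

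Whether the organs responded differently was tested directly as an interaction. Of 45 members 0 differed at either dose (0% and 0.0494% of all features did). At 0.2 mg/ml the smallest adjusted p was that of Gsta3, whose change in liver was 1.66 lower than in spleen (log2 difference of changes -1.66, 95% interval -2.26 to -1.05, adjusted p = 0.105, limma). Gsto1 at -0.96 (adjusted p = 0.344) and Gstp1 at -1.54 (adjusted p = 0.582) were the others with an unadjusted p under 0.05, where 8.34% of all features had one. At 0.1 mg/ml the values were -1.28 for Gsta3 (adjusted p = 0.244), -2.58 for Gstm5 and -0.70 for Gsto1, and 9.85% of all features had an unadjusted p under 0.05. Gsta3 at 0.2 mg/ml was -1.62 without spleen 56 and -1.67 without spleen 32, and Gstm5 at 0.1 mg/ml was -3.62 without spleen 56. Each of these fits leaves 1 array in the 0.1 mg/ml spleen group. Over all alternatives the adjusted p of Gsta3 at 0.2 mg/ml ran from 0.0421 to 1.0 and that of Gstm5 at 0.1 mg/ml from 0.00167 to 0.739. No Ugt gene came closer than Ugt1a6b at 0.1 mg/ml, at 0.48 (adjusted p = 0.52).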

How the data were processed

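Biotin-labelled cRNA from liver and spleen was hybridised to Illumina mouse bead arrays, according to the labels. Probe intensities and a detection p-value for each were deposited, per the file headers, and the values show no scaling between arrays. GenomeStudio 1.6.0 is named, per the submitters' processing notes. The deposited log2 matrix differed by at most 0.0913 from quantile-normalized signals and was used as an alternative.

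From the intensities, neqc (limma 3.58.1, R 4.3.3; offset 16) was run within each tissue for dose comparisons and over all 11 arrays for tissue comparisons. Probes detected (p-value below 0.05) on fewer than 2 arrays of a fit were dropped, and a gene's brightest kept probe represented it. One mean per group was fitted with lmFit and eBayes over 12800 (liver), 14179 (spleen) or 16179 features (both), with 3, 2 and 5 residual degrees of freedom, and p-values were adjusted over all features by Benjamini-Hochberg at 0.05. The number of arrays limits the precision. The steps were tested on simulated data.

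Platform annotation names 34885 probes with 1 symbol, 18 with several and 10378 with none. Genes named are those called (up to 12 a direction), otherwise the 5 with the smallest unadjusted p each way, the 2 with the highest mean in each family and tissue, and undetected members. Members, gene lists and tests were chosen with earlier results of these data known, and sex-biased and adipocyte genes after the values were seen. Alternatives were other scaling, background, offset, filter, probe and moderation choices, the averaged spleens 62 and 62_86, and leaving out each array.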

Additional observations from a re-analysis of the deposited data

Results flagged for a closer look

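Among the 41 members analysed in liver, 5 had 1 array far from the other 5 (Dixon's gap test), and among 25 in spleen 1 did. The nominal rate of the test is about 1 in 20 for independent values of a single group. Here the arrays of a tissue mix treatment groups, and members can share exons. The share over all features was not computed, so the counts are not read against that rate. On control liver 25, Gsta2 read 5.96 against 7.15 to 7.45 on the other livers, Ugt1a9 read 6.95 against 8.12 to 8.54, Ugt2b1 read 9.11 against 10.10 to 10.58 and Ugt1a10 read 12.36 against 12.59 to 12.72. Control liver 1 was high for the Ugt1a6a probe used, at 8.84 against 8.32 to 8.47. The remaining Ugt1a6a probes did not repeat this. On control 1 they read 4.95, the lowest liver, and 7.18, below the 7.34 of liver 43. In spleen the lone control was low for Gsto1, at 6.89 against 7.54 to 7.72 on the 4 treated arrays.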

How the results depend on the processing

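No paired analysis was possible because the groups share no replicate numbers. For 94 named values, 1482 recomputed values gave 1433 with the same direction and side of the threshold, 37 that newly passed, 1 that no longer did (Gstcd between tissues) and 11 with the opposite sign. The tissue count of 40 became 16 of 16 tested with the strict filter, where 75.2% of all features were called. With every probe tested it became 62 of 73, where 59.5% were called. With all 11 arrays together, 1 member passed for spleen at 0.2 mg/ml against control, where 0.507% of all features did. With arrays left out, the members called ran from 0 to 6 (liver, 0.1 mg/ml against control), 0 to 5 (liver, 0.2 mg/ml), 0 to 5 (liver, between doses), 1 to 6 (spleen, 0.1 mg/ml), 0 to 3 (spleen, 0.2 mg/ml), 0 to 3 (spleen, between doses), 40 to 41 (tissues) and 0 to 1 for the difference in response at either dose; the lone spleen control could be left out only of comparisons that do not need it. Leaving out 1 array turned the sign of 11 values, none of them past the threshold with the turned sign. In liver at 0.1 mg/ml Ugt1a5 ran from -0.86 to 0.0890 and Ugt1a1 from -0.51 to 0.0727, and at 0.2 mg/ml Ugt2b35 ran from -0.70 to 0.13 and Ugt1a6a from -0.38 to 0.0251. In spleen Gstp2 ran from -0.35 to 0.12 (0.1 mg/ml), Gstt3 from -0.26 to 0.0214 (0.2 mg/ml), and between doses Gstp1 from -0.0260 to 0.63, Gstm5 from -1.86 to 0.10 and Gsta4 from -0.67 to 0.0868. For the difference in response Ugt2b1 ran from -0.0126 to 1.26 (0.1 mg/ml) and Gsta2 from -0.11 to 1.20 (0.2 mg/ml). A lone array left in a group is assumed to vary like the others, and the cause of these changes was not tested.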
